A study of Mus musculus with 10 samples.

Results

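Ribosomal RNA, the RNA subunits of housekeeping ribonucleoproteins and some nuclear long noncoding RNAs are among the most abundant transcripts of most cells, and they can take a large share of libraries made from total RNA without selection for poly(A) tails. The genes described here are Rn45s, the precursor of the large ribosomal RNAs, Rmrp and Rpph1, the RNA subunits of the endoribonucleases RNase MRP and RNase P, Rn7sk, the 7SK RNA that holds the elongation factor P-TEFb inactive, Terc, the telomerase RNA, and Malat1 and Neat1, a neighbouring pair of nuclear long noncoding RNAs. They were chosen by name, 7 symbols in all, and 6 of the 7 have a row among the 25078 RefSeq genes of the count table. Rn7sk has no row and was not analysed here. All 6 had counts in every library and were fitted among the 18747 genes that had at least 1 count in any library.

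RNA-seq was performed on LSK cells, which lack lineage markers and carry Sca-1 and c-Kit and which include the stem cells and early progenitors of the bone marrow. CM mice (Cbfb 56M/+/Mx1-Cre, n = 5) express the Cbfb-MYH11 fusion of inv(16) acute myeloid leukemia, and CM/miR-126Δ/Δ mice (n = 5) carry miR-126 flox/flox beside Cbfb 56M/+ and Mx1-Cre, so that both copies of miR-126 are deleted as well. Both groups were treated with poly(I:C) at 6 to 8 weeks of age, on a C57BL/6 background and with both sexes used, and both were examined in the preleukemic phase 6 weeks later, with 1 library per mouse and mice numbered 1 to 5 in each genotype. The Mx1 promoter that drives Cre responds to interferon and is not specific to blood cells, and every library comes from a mouse with the fusion allele, so no comparison with unrearranged marrow was made here. The comparison asks what loss of miR-126 changes in preleukemic CM LSK cells.

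Ribosomal RNA was removed with probes and RNase H before stranded libraries were made, so the level of Rn45s is what depletion left and not the ribosomal RNA content of the cells. Libraries held 23649233 to 33202086 counts. Mir126a, the deleted microRNA gene, had 0 to 5 counts per CM library and 0 in each CM/miR-126Δ/Δ library. The 6 LSK markers (Kit, Ly6a, Cd34, Flt3, Mecom and Meis1) summed to 2364 to 2938 CPM (counts scaled to library size with TMM factors), whereas 3 T cell markers summed to at most 5.23 CPM and 3 B cell markers to at most 6.61 CPM. The 3 monocyte and macrophage markers, some of which progenitors also express, summed to 97.4 to 305 CPM, and the erythroid markers, of which 2 of 5 had any count, to 1.69 to 21.6 CPM. Granulocyte markers (Ly6g, S100a8, S100a9, Camp and Ltf) ranged from 1.18 CPM in CM/miR-126Δ/Δ mouse 3 to 117 CPM in CM mouse 5 and 270.2 CPM in CM/miR-126Δ/Δ mouse 4. No gene of these marker lists had an adjusted p under 0.05 between the genotypes (edgeR). In bulk libraries fewer cells of one type and less RNA per cell cannot be told apart.

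Per length of transcript, Rn45s and Rpph1 were the most abundant rows of the whole table. RPKM (CPM divided by the exon length in kilobases, on TMM-scaled library sizes) ranked Rn45s first in 8 of 10 libraries and Rpph1 first in the other 2, which were mouse 4 of each genotype, and gave Rmrp rank 3 in all 10. The RPKM of Rn45s was 24618 to 41941, that of Rpph1 13175 to 38027 and that of Rmrp 3672 to 7300.0, and the ranges of Rn45s and Rpph1 overlapped. Malat1 followed at 500.3 to 1075 RPKM (rank 9 to 39), Terc at 60.7 to 109 RPKM (rank 292 to 739) and Neat1 at 7.96 to 21.4 RPKM (rank 3299 to 7322). Neighbours in that order from Rmrp down to Neat1 did not overlap in any library. Terc and Neat1 are thus well detected but far from the most abundant RNAs here, and Neat1, whose row spans the whole of its long isoform, had more counts than Terc (4067 to 12046 against 589 to 1166) at a lower level per length.

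**Figure D1:**
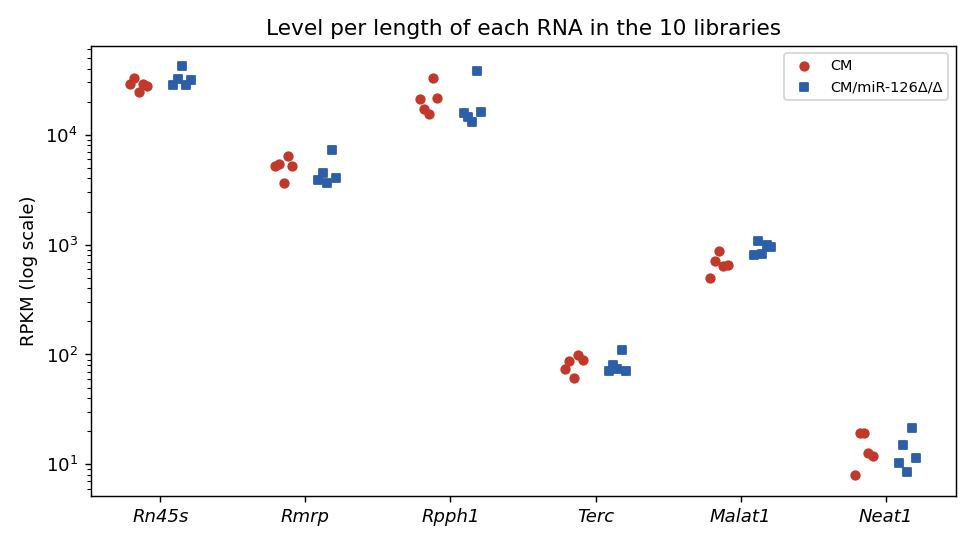
RPKM (log scale) of each of the 6 RNAs in the 5 CM and the 5 CM/miR-126Δ/Δ libraries, 1 point per mouse. Levels span from 7.96 for the lowest Neat1 value to 41941 for the highest Rn45s value, and the point of Rpph1 that stands highest in each genotype is mouse 4.

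None of the 6 RNAs passed the test between the genotypes. At an adjusted p under 0.05 (edgeR's quasi-likelihood test, Benjamini-Hochberg over all genes) 0 of 6 were called, where 0.0107% of all genes were, and by the study's cutoffs (p at or below 0.01, fold change of at least 1.5, mean RPKM of at least 1) 0 of 6 were called, where 0.288% of all genes were. At an unadjusted p under 0.05, 1 of the 6 was found, where 6.61% of all genes were, and DESeq2 also gave 0 at an adjusted p under 0.05 and 1 at an unadjusted p under 0.05. That RNA was Malat1, higher in mean in CM/miR-126Δ/Δ. Without both mice numbered 4, which was chosen after the data were examined, 3 of the 6 had an unadjusted p under 0.05. These were Malat1, higher in mean where miR-126 was deleted, and Rmrp and Rpph1, lower in mean. The 6.61% is from edgeR over all 10 libraries, and no such share was worked out for DESeq2 or without the mice numbered 4. For 0 of the 6 did the genotypes separate completely, where 1.38% of the genes that averaged 1 RPKM or more did.

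**Figure D2:**
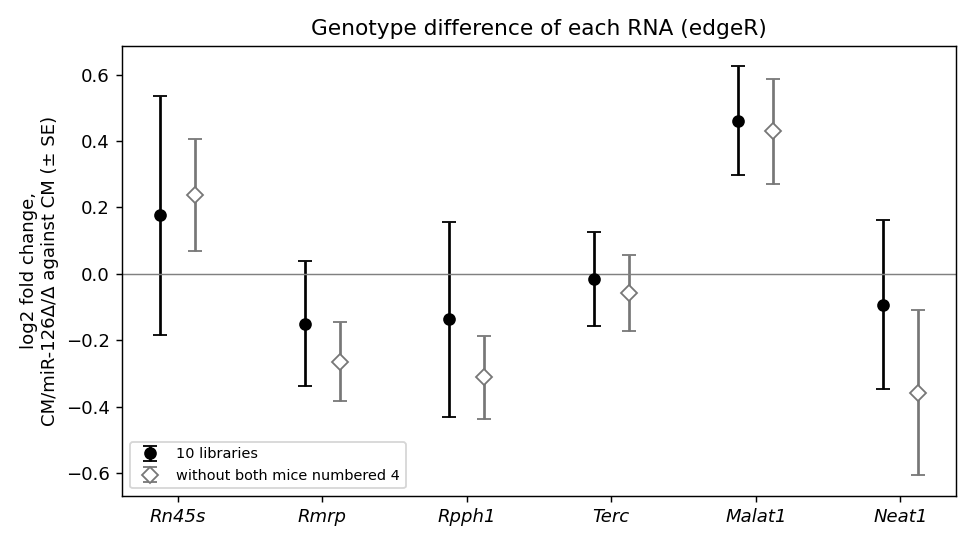
Log2 fold change of each RNA for CM/miR-126Δ/Δ against CM with a standard error worked back from edgeR's F statistic, over all 10 libraries (filled circles) and without both mice numbered 4 (open diamonds, chosen after the data were seen). Malat1 lies at 0.46 and 0.43, and the error bars of Rn45s and Rpph1 are narrower without the mice numbered 4. For Rn45s the SE also went from 0.360 to 0.114 with all 10 libraries kept and edgeR's expression filter on genes.

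Rn45s (chromosome 17, 39842997 to 39848829 on the plus strand in mm10) has 1 row, with 5833 bases of exon, and it took the most counts in every library. RNA polymerase I makes the ribosomal RNA precursor, which is cut into the 18S, 5.8S and 28S RNAs. How much of that precursor the row covers was not examined. Its share of all counts was 16.99%, 18.5%, 14.8%, 17.2% and 16.5% in CM mice 1 to 5. Mice 1 to 5 of the CM/miR-126Δ/Δ genotype had 16.6%, 18.5%, 22.6%, 17.2% and 18.6%. Mouse 3 was the lowest of the CM mice and the highest of the CM/miR-126Δ/Δ mice, and the other 8 lay between 16.5% and 18.6%. The genotype means differed by 1.89 percentage points, less than the range within either genotype (exact permutation test, two-sided, p = 0.135, 5 mice against 5). Without CM/miR-126Δ/Δ mouse 3 the difference was 0.920 percentage points (exact permutation test, p = 0.246) and the log2 fold change was 0.066, so the size rests largely on that mouse. With all mice the log2 fold change on the normalized scale was 0.18 (SE 0.360, adjusted p = 0.926 from edgeR). Over 21 other fits the SE ranged from 0.107 to 0.468 and the adjusted p from 0.716 to 0.977. No other row stood within 2-fold of Rn45s, so its spread could not be set beside that of genes of like level. Of 11681 genes that averaged 1 RPKM or more, those with the highest Pearson's r of log2 CPM to Rn45s were Tbcd (r = 0.93), Galnt5 (r = 0.91) and Top3a (r = 0.85). Lars2, the mitochondrial leucyl-tRNA synthetase gene and the only one of 7 listed rows with ribosomal RNA-like sequence found in the table, was at 36.4 to 43.6 CPM and had a log2 fold change of 0.06 (SE 0.0632, adjusted p = 0.811 from edgeR).

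The labels give an RNA concentration for each sample, which was 20.6 to 40.9 ng per µl in CM mice and 16.1 to 29.5 ng per µl in CM/miR-126Δ/Δ mice (means 30.0 and 21.0, exact permutation test, p = 0.0794). The sample with the lowest concentration, CM/miR-126Δ/Δ mouse 3, had the highest share on Rn45s. Over the 10 libraries Pearson's r between concentration and Rn45s share was −0.54 (permutation test, p = 0.112) and Spearman's rho was −0.64 (permutation test, p = 0.0545). Without the 2 samples farthest from the median concentration r was −0.58, but with both measures on a log2 scale r went from −0.59 to −0.32 on the same omission. Neither coefficient passed 0.05. As deviations from each genotype's mean, added after the data were examined and given without a test, the share and the concentration had an r of −0.35 over the 10 libraries. The part of concentration in the Rn45s share was not tested further.

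**Figure D3:**
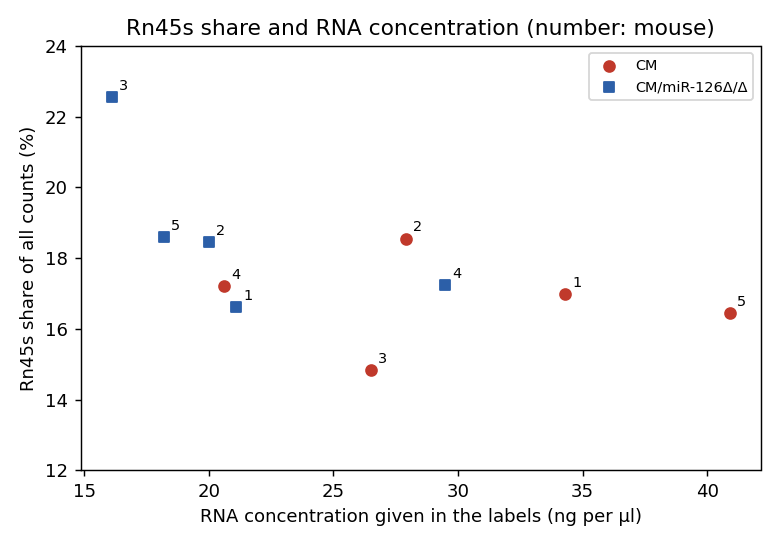
Share of all counts on Rn45s (%, axis from 12 to 24) against the RNA concentration of the sample in ng per µl, 1 point per mouse with its number. CM/miR-126Δ/Δ mouse 3, at 16.1 ng per µl and 22.6%, lies apart from the other 9.

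Rmrp (chromosome 4, 43492785 to 43493059, minus strand) and Rpph1 (chromosome 14, 50807447 to 50807771, minus strand) are made by RNA polymerase III. Their enzymes share most protein subunits, and RNase P removes the 5′ leader of precursor tRNAs while RNase MRP takes part in cutting the ribosomal RNA precursor. Both rows are short (275 and 325 bases), and neither overlaps another row, although the divergent genes Ccdc107 and Parp2 begin 306 and 145 bases away. Rpph1 was at 6827, 5544, 5007, 10586 and 7038 CPM in CM mice 1 to 5. The CM/miR-126Δ/Δ mice had 5178, 4753, 4282, 12359 and 5266 CPM in the same order. Mouse 4 was the highest of each genotype, and it exceeded the next mouse of its genotype by more than the other 4 spanned. Rpph1 alone took 0.395% to 1.29% of all counts in these libraries.

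Rmrp was at 1418, 1502, 1010.5, 1771 and 1428 CPM in CM mice 1 to 5. For CM/miR-126Δ/Δ mice 1 to 5 the values were 1072, 1233, 1009.8, 2008 and 1105 CPM. Mouse 4 was again the highest and mouse 3 the lowest of each genotype, and the genotypes overlapped. The log2 fold change was −0.15 (SE 0.188, adjusted p = 0.862 from edgeR) for Rmrp and −0.14 (SE 0.293, adjusted p = 0.932) for Rpph1. In 4 of 5 same-numbered pairs of mice both were lower where miR-126 was deleted, and in the pair numbered 4 both were higher. In the pair numbered 3 Rmrp was nearly equal, at 1010.5 and 1009.8 CPM. Without CM/miR-126Δ/Δ mouse 4 the log2 fold changes were −0.35 and −0.51, with adjusted p-values of 0.438 for both, and without both mice numbered 4 they were −0.26 and −0.31 (adjusted p = 0.686 and 0.634 from edgeR), and no adjusted p passed 0.05 with or without these mice. The unadjusted p did pass 0.05 for both RNAs without CM/miR-126Δ/Δ mouse 4 or without both mice numbered 4, but not with all 10 mice, so the size of each difference and its unadjusted p rest on these mice. Without CM mouse 4 alone the sign for Rpph1 turned (0.073). The Rmrp share of all counts differed by −0.0144 percentage points (exact permutation test, p = 0.54), and without CM/miR-126Δ/Δ mouse 4 by −0.0347 (exact permutation test, p = 0.0476, unadjusted).

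Counts of Rpph1 for each count of Rmrp, a ratio that no normalization can change, were 4.81, 3.69, 4.96, 5.98 and 4.93 in CM mice 1 to 5. The same ratio was 4.83, 3.85, 4.24, 6.16 and 4.76 in CM/miR-126Δ/Δ mice 1 to 5. The group means were 4.87 ± 0.811 and 4.77 ± 0.872 (SD, n = 5 each), and mouse 4 was the highest and mouse 2 the lowest in both genotypes.

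Terc (chromosome 3, 96414437 to 96414833, minus strand) is the template RNA of telomerase, made by RNA polymerase II and ending in an H/ACA domain like that of many small nucleolar RNAs. It was at 29.1, 34.4, 24.1, 39.2 and 35.2 CPM in CM mice 1 to 5. Among CM/miR-126Δ/Δ mice 1 to 5 Terc was at 28.0, 31.8, 29.3, 43.3 and 27.9 CPM. Mouse 4 was the highest of each genotype, and the means were 32.4 ± 5.86 and 32.1 ± 6.47 CPM (SD, n = 5 each). The log2 fold change was −0.02 (SE 0.141, adjusted p = 0.979 from edgeR), and its sign changed with the scaling and with the mice included.

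Rmrp, Rpph1 and Terc varied together between mice. Of the 15 pairs among the 6 RNAs, Pearson's r of log2 CPM over 10 libraries was highest for Rmrp with Terc at 0.92 (permutation test, p = 0.00023, 0.00202 after Benjamini-Hochberg adjustment over the 15 pairs) and with Rpph1 at 0.91 (permutation test, p = 0.00027, adjusted 0.00202). Spearman's rho was 0.83 for the first pair (permutation test, p = 0.00474, adjusted 0.0355) and 0.89 for the second (permutation test, p = 0.00112, adjusted 0.0168). The 2 libraries farthest from the median of Rmrp were those of the mice numbered 4. Without them r was 0.78 with Terc and 0.75 with Rpph1, and rho was 0.67 and 0.79 over 8 libraries. Rpph1 with Terc had an r of 0.81 (permutation test, p = 0.00362, adjusted 0.0181) and a rho of 0.66 (permutation test, p = 0.0437, adjusted 0.219). For that pair r was 0.40 without the 2 libraries farthest from the median of Rpph1, again the mice numbered 4, so that relation rests on those libraries. No other pair had an adjusted p under 0.05, with r between −0.40 and 0.48. As deviations from each genotype's mean, r was 0.95 for Rmrp with Terc, 0.91 for Rmrp with Rpph1 and 0.83 for Rpph1 with Terc, given as a description. CPM values of one library share a scaling factor.

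**Figure D4:**
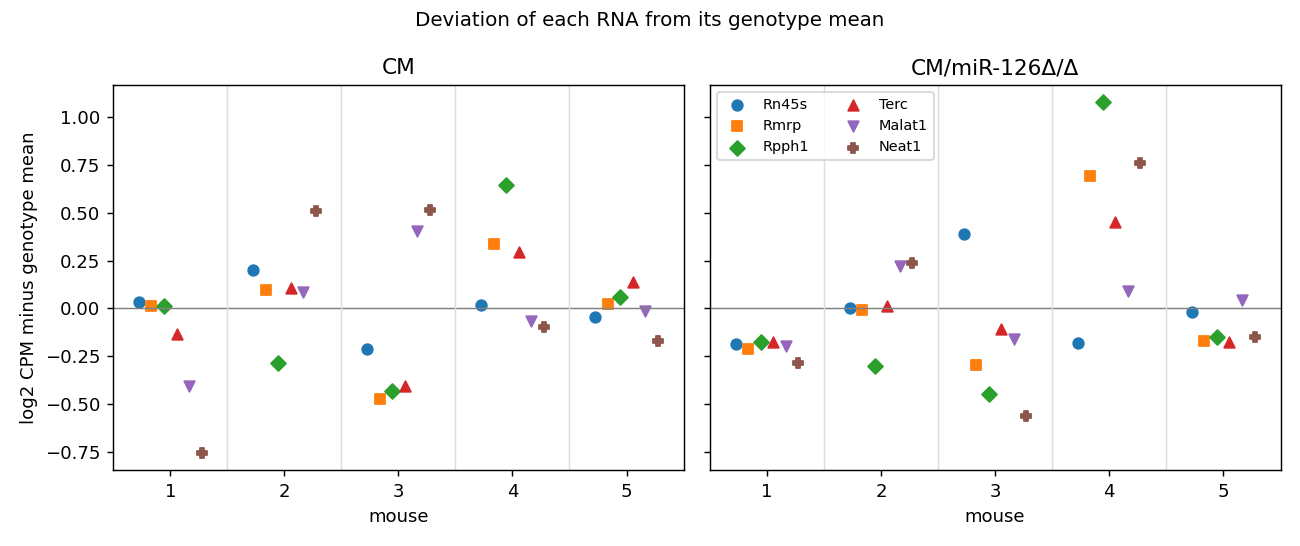
Log2 CPM of each RNA minus the mean of its genotype, for mice 1 to 5 of each genotype. Rmrp, Rpph1 and Terc lie above 0 in mouse 4 and below 0 in mouse 3 in both genotypes, while Rn45s lies on opposite sides in the mice numbered 3.

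The genes whose pattern over the 10 libraries was most like these RNAs, among 11681 genes that averaged 1 RPKM or more, included other short RNAs. The highest of so many r values over 10 libraries can be high by chance, so they are given as a description. For Rmrp they were Snora74a (r = 0.99), Scarna6 (r = 0.95) and 2010320M18Rik (r = 0.94). For Rpph1 they were Scarna10 (r = 0.98), Rps14 (r = 0.97) and Khk (r = 0.96), and for Terc Dapk3 (r = 0.94), Sp3os (r = 0.93) and Mief2 (r = 0.92). The summed level of the 106 rows named as small nucleolar or small Cajal body RNAs with any count was 666, 730.2, 547, 932 and 810.0 CPM in CM mice 1 to 5. Across CM/miR-126Δ/Δ mice 1 to 5 the sum was 608, 637, 555, 1069 and 649.8 CPM. Mouse 4 was again the highest and mouse 3 the lowest of each genotype. As a description over the 10 libraries, this sum had an r of 0.96 with Rmrp, 0.94 with Rpph1 and 0.94 with Terc, and of −0.26 with Rn45s, −0.13 with Malat1 and 0.38 with Neat1, and without both mice numbered 4 the first 3 were 0.88, 0.78 and 0.83. CM/miR-126Δ/Δ mouse 4, where the short RNAs were highest, also had the highest granulocyte marker sum (270.2 CPM) and the lowest LSK marker sum (2364 CPM), whereas CM mouse 4, second highest for the short RNAs, had 24.5 and 2776 CPM and CM mouse 5, second for granulocyte markers, had Rmrp near the CM mean. Their part in the result was not tested.

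Malat1 (chromosome 19, 5795690 to 5802672, minus strand) is an unspliced nuclear RNA of nuclear speckles whose 3′ end is cut to release a small tRNA-like RNA, and the row of that small RNA, Mascrna, overlaps it and had 0 counts in every library. Of the 6 RNAs only this gene has an entry in the RefSeq promoter table used here, and the 80 bases around its start are shown because Malat1 had the smallest p of the 6. In GRCm38.p6, the assembly called mm10, they lie at chr19:5802623-5802702 on the minus strand, with the first 50 bases of the RNA in capitals.
Malat1: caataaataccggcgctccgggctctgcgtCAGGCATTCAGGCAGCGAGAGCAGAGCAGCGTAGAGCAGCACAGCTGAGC

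Malat1 took 0.348%, 0.477%, 0.633%, 0.451% and 0.467% of all counts in CM mice 1 to 5. In CM/miR-126Δ/Δ mice 1 to 5 it took 0.570%, 0.740%, 0.533%, 0.719% and 0.667%. CM mouse 3 lay above CM/miR-126Δ/Δ mice 1 and 3, and the other 4 CM mice lay below every CM/miR-126Δ/Δ mouse. The mean share was 0.475% ± 0.102 in CM and 0.646% ± 0.0912 in CM/miR-126Δ/Δ (SD over 5 mice each), which is 36.0% higher (exact permutation test, p = 0.0317, unadjusted, 1 of 6 shares compared). Of the counts other than Rn45s Malat1 took 0.570% ± 0.116 and 0.794% ± 0.103 (exact permutation test, p = 0.0238 unadjusted, 0.119 after the same adjustment over 5 shares). Mean levels were 4713 ± 955 CPM with miR-126 and 6484 ± 783 CPM without it (SD, 5 mice each), and the log2 fold change was 0.46 (SE 0.164, unadjusted p = 0.0140, adjusted p = 0.736 from edgeR), and its p ranked 354 among the 18747 genes. In 4 of 5 same-numbered pairs the mouse without miR-126 had more Malat1, the pair numbered 3 being the exception.

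The Malat1 difference kept its direction under each of the 21 other fits, with log2 fold changes of 0.38 to 0.59, an unadjusted p of 0.000289 to 0.0411 and an adjusted p of 0.0685 (DESeq2) to 0.906. Without CM mouse 3, whose share was the highest of its genotype, the log2 fold change was 0.59 (unadjusted p = 0.00259, adjusted p = 0.294 from edgeR), which met the study's cutoffs. Before adjustment, the exact permutation test of its share passed 0.05 with all 10 mice but not without any one of 6 of the mice, where p was 0.0635 each time. The genes nearest to Malat1 in pattern were Gm14853 (r = 0.97), Snord19 (r = 0.95) and 2610024D14Rik (r = 0.95), with log2 fold changes of 0.58, 0.65 and 0.88. They were picked over the same libraries with the genotype difference included, so fold changes in the direction of Malat1 follow in part from the choice.

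Neat1 (chromosome 19, 5824710 to 5845480, minus strand) lies 22038 bases upstream of Malat1 on the same strand. Its long isoform is the scaffold of paraspeckles, nuclear bodies that hold back proteins and edited RNAs. Neat1 was at 165, 398, 399.6, 261 and 248 CPM in CM mice 1 to 5. The CM/miR-126Δ/Δ mice 1 to 5 were at 214, 309, 177, 444 and 236 CPM. Mouse 3 was the highest of the CM mice and the lowest of the CM/miR-126Δ/Δ mice, and the genotypes overlapped over nearly their whole ranges. The means were 294 ± 102 and 276 ± 105 CPM (SD, n = 5 each), with a log2 fold change of −0.09 (SE 0.254, adjusted p = 0.948 from edgeR) whose sign turned when CM mouse 2 (0.041), CM mouse 3 (0.054) or CM/miR-126Δ/Δ mouse 3 (0.031) was left out. The genes nearest to it in pattern were Ager (r = 0.95), Ccl25 (r = 0.94) and Smim11 (r = 0.93).

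Pearson's r between Malat1 and Neat1 was 0.48 over 10 libraries (permutation test, p = 0.162, adjusted 0.599 over the 15 pairs), Spearman's rho was 0.48 (permutation test, p = 0.167, adjusted 0.589) and r without the 2 libraries farthest from the median of Malat1 was 0.20. On deviations from each genotype's mean, a scale added once the values were known, r was 0.83. Counts of Malat1 for each count of Neat1 were 21.1, 12.4, 15.3, 16.95 and 18.5 in CM mice 1 to 5. This ratio was 26.2, 24.3, 32.6, 15.5 and 28.1 in CM/miR-126Δ/Δ mice 1 to 5. All CM/miR-126Δ/Δ mice but mouse 4 lay above every CM mouse. The ratio was computed after the values were seen and is given without a test.

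**Figure D5:**
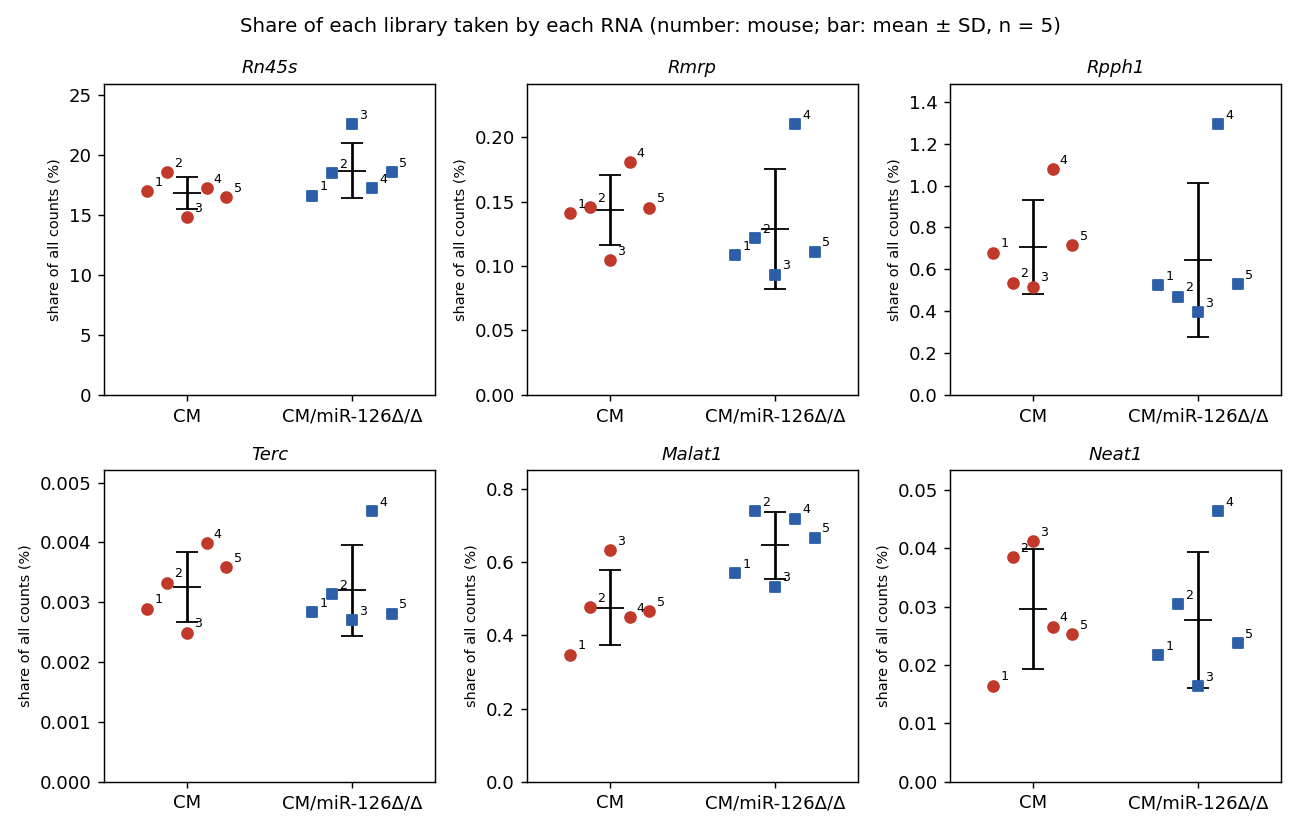
Share of all counts (%) taken by each RNA in each library, 1 point per mouse with its number, with the mean and SD of each genotype. Mouse 4 is highest of each genotype for Rmrp, Rpph1 and Terc, and Malat1 is the RNA whose genotypes overlap least.

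Together the 6 RNAs took 16.1% to 19.8% of all counts in CM and 17.8% to 23.6% in CM/miR-126Δ/Δ mice (means 18.2% and 20.1%, exact permutation test, p = 0.0952). The 5 other than Rn45s took 1.19% to 1.74% in CM and 1.04% to 2.27% in CM/miR-126Δ/Δ (means 1.36% and 1.45%, exact permutation test, p = 0.754). Within a genotype Neat1, Rmrp and Terc varied more than most genes of like abundance. The coefficient of variation of CPM was 34.7% for Neat1 in CM and 38.2% in CM/miR-126Δ/Δ, higher than that of 98.99% and 98.9% of the 1282 genes within 2-fold of its mean. For Rmrp it was 19.1% and 32.03%, higher than 93.8% and 96.9% of 64 such genes, and for Terc it was 18.1% and 20.2%, higher than 92.0% and 94.5% of 4613. In CM/miR-126Δ/Δ, mouse 4 stood apart for both, at 2008 CPM for Rmrp and 43.3 CPM for Terc. The other mice of that genotype had 1009.8 to 1233 CPM and 27.9 to 31.8 CPM. The Rmrp and Terc coefficients in that genotype thus rest in part on mouse 4, and they were not worked out without it. At most 3 genes lay within 2-fold of Rpph1 or Malat1, too few for such a comparison, and the coefficients were 31.1% and 53.0% for Rpph1 and 20.3% and 12.1% for Malat1. Counting error was far smaller, since the 95% Wilson interval of a share reached at most ± 8.08% of its value for Terc and ± 1.29% for Rmrp.

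Genes that make these RNAs or work with them were listed by role, and none of the lists held a gene called at an adjusted p under 0.05 or by the study's cutoffs. Of the RNA polymerase I genes, 15 of 16 had a log2 fold change below 0 (median −0.06). The median was −0.01 for all genes tested and −0.02 for the 11682 with a mean RPKM of at least 1 in either genotype. The share of all genes below 0 was not worked out, here or for the telomerase genes below. Of the polymerase I genes 1 had an unadjusted p under 0.05, Polr1d, a subunit shared with polymerase III, at −0.20 (SE 0.0884, adjusted p = 0.748 from edgeR). Of the 22 RNA polymerase III genes 1 was higher and 1 lower at an unadjusted p under 0.05, Snapc3, part of the complex that binds promoters such as those of Rmrp and Rpph1, at 0.39 (SE 0.169, adjusted p = 0.748 from edgeR) and Polr3e at −0.15 (SE 0.0643, adjusted p = 0.746 from edgeR), and the median was −0.01. Of 11 RNase P and RNase MRP proteins 10 were tested and 0 had an unadjusted p under 0.05 (median −0.10). Pop4, the one of them with the highest RPKM in CM, was at 19.4 RPKM in CM and 17.7 RPKM in CM/miR-126Δ/Δ (log2 fold change −0.14, adjusted p = 0.765 from edgeR).

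Of the 8 telomerase genes 6 had a log2 fold change below 0 (median −0.10), and Nop10, a protein of the H/ACA particle that binds Terc, was the 1 gene with an unadjusted p under 0.05, at −0.24 (SE 0.0886, adjusted p = 0.746 from edgeR). The 7SK particle and P-TEFb genes had a median of −0.09, and Mepce, the enzyme that caps 7SK, was the 1 of 7 with an unadjusted p under 0.05, at −0.15 (SE 0.0627, adjusted p = 0.746 from edgeR). Of 12 paraspeckle genes 1 had an unadjusted p under 0.05, Pspc1, at 0.17 (SE 0.0623, adjusted p = 0.746 from edgeR), and the median was 0.03. These shares are to be read beside the 6.61% of all genes at that level.

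Among other structural RNAs, 11 of 24 listed symbols were in the table and 10 had a count. Rnu6 had at most 3 counts in any library and was the only one with an unadjusted p under 0.05, a level too low to interpret. Rnu3a, the U3 RNA that guides early cuts of the ribosomal RNA precursor, averaged 58.1 ± 16.98 CPM in the CM mice and 59.0 ± 27.8 CPM in the others (SD, 5 mice each). Among 23 other long noncoding RNAs 3 were higher and 6 lower in CM/miR-126Δ/Δ at an unadjusted p under 0.05, where 3.29% and 3.32% of all genes were, and 0 had an adjusted p under 0.05. The 4 with the smallest p were Zfas1 at −0.35 (SE 0.0921, adjusted p = 0.525 from edgeR), Snhg12 at −0.49 (SE 0.143, adjusted p = 0.612), Snhg15 at −0.50 (SE 0.173, adjusted p = 0.704) and H19, which had at most 5 counts in any library. Zfas1, Snhg12 and Snhg15 are spliced RNAs whose introns carry small nucleolar RNAs, and each was lower in mean in CM/miR-126Δ/Δ, where Malat1 was higher in mean.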

How the data were processed

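Per the labels, RNA from sorted LSK cells was made into stranded libraries after ribosomal RNA depletion and read as 51-base single reads. After trimming with Trimmomatic 0.38 and FASTP 0.19.4, the authors placed reads on mm10 (TopHat 2.0.8), and HTSeq 0.6.1 gave raw counts per RefSeq gene, which they deposited and which are the unit used here. How reads with several alignments, or the strand, were treated in counting is not given in the sources used here. This bears on Rn45s, a repeated gene for which the table holds 1 row, and on Rmrp and Rpph1, which may have copies elsewhere in the genome. The deposited table of normalized values was not used.

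Shares are counts over all counts of the library. CPM and RPKM were computed from the counts with TMM factors (0.922 to 1.05) and exon lengths. Genotypes were compared with edgeR 4.0.16 in R 4.3.3 (quasi-likelihood F-test, genes with at least 1 count, Benjamini-Hochberg over 18747 genes) and single values with two-sided exact permutation tests over 252 splits of the mice, whose smallest p is 0.00794. The SE given for edgeR is the absolute log2 fold change over the square root of the F statistic. DESeq2 gave its own SE, so the 2 are not the same quantity. Correlations used 100000 permutations. On simulated counts over 18358 genes, edgeR recovered 87% of 2-fold and 100% of 4-fold changes for this comparison. Only genes above 1 CPM on average were changed there, and each count was drawn independently. Changes under 2-fold, such as that of Malat1, were not simulated. Alternatives were other scaling factors, library totals without Rn45s, DESeq2 1.42.0, other filters and dispersions, a block on mouse number and leaving out each mouse. Leaving out both mice numbered 4 was chosen after the data were seen. Likeness was ranked by Pearson's r of log2 CPM, and 3 genes were named for each RNA. In each list the genes with an unadjusted p under 0.05 were named, at most 4 by smallest p, or otherwise the gene with the highest RPKM. The RNAs, lists and named-gene rules were chosen with earlier results of these data known. Wilson 95% intervals cover counting error only, and 3 counts equal 0.0904 to 0.127 CPM.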

Additional observations from a re-analysis of the deposited data

Results flagged for a closer look

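A mouse far from the other 4 of its genotype (Dixon's test, 95% critical value 0.71) was found in 13 of 40 groups tested, where chance gives about 2, and these groups are not independent since shares, CPM and sums repeat the same counts. In CM/miR-126Δ/Δ mouse 4, Rmrp was high at 0.210% of all counts, 0.254% of counts other than Rn45s and 2008 CPM. Rpph1 was high in the same mouse at 1.29%, 1.56% and 12359 CPM, and Terc at 0.00453%, 0.00547% and 43.3 CPM. The RNAs other than Rn45s together took 2.27% of all counts and 2.75% of counts other than Rn45s in that mouse. In CM mouse 4 the latter share was 2.10%, also far above the other CM mice. Rn45s stood apart in CM/miR-126Δ/Δ mouse 3, at 244643 CPM.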

How the results depend on the processing

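The 6 log2 fold changes had no adjusted p under 0.05 in any of 21 alternatives, and those of Rn45s, Rmrp and Malat1 kept their direction in all 21. Leaving out 1 mouse at a time moved the log2 fold change of Rpph1 between −0.51 and 0.073, of Terc between −0.13 and 0.073 and of Neat1 between −0.32 and 0.054, and with upper quartile factors Terc was at 0.012. Of the 6 RNAs 0 to 1 met the study's cutoffs when 1 mouse was left out, the 1 being Malat1 without CM mouse 3. The difference in share, in percentage points, ranged over the same omissions from 0.920 to 2.40 for Rn45s, −0.0347 to −0.00515 for Rmrp, −0.226 to 0.0298 for Rpph1, −0.000387 to 0.000128 for Terc, 0.139 to 0.211 for Malat1 and −0.00655 to 0.00104 for Neat1. It ranged from 1.11 to 2.55 for all 6 summed, with the exact permutation p at 0.0238 without CM/miR-126Δ/Δ mouse 1, and from −0.115 to 0.193 for the 5 other than Rn45s. The Terc share difference was 1.02e-05 of counts other than Rn45s and 1.91e-05 of counts other than all 6. Without both mice numbered 4 the Malat1 share differed by 0.146 (exact permutation test, p = 0.114) and the sum of the 5 by −0.0193, while Neat1 had a log2 fold change of −0.36 and a share difference of −0.00731. The causes were not tested.

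Mouse numbers were not used as pairs in the tests above, and same-numbered pairs were only described by direction. The labels tie the numbers to no shared litter, batch or day and 1 of 5 pairs showed no correlation, but some pairing is not excluded. Deviations of same-numbered mice correlated at over 0.1 in 4 of 5 pairs (mean r 0.211, against −0.0535 for other pairs), 5 of 10 libraries correlated best with their own number, and the sample numbers in the table's column names follow each other within each pair. With mouse number as a block 20 genes had an adjusted p under 0.05 and 115 met the study's cutoffs. In that fit 2 of the 6 RNAs had an unadjusted p under 0.05, a level for which its share of all genes was not worked out. They were Malat1 at 0.48 (SE 0.0989, adjusted p = 0.121 from edgeR) and Rpph1 at −0.21 (SE 0.0859, adjusted p = 0.486), while Rmrp was at −0.18 (SE 0.0841, adjusted p = 0.586). In the paired sign-change test of the Malat1 share (difference 0.171) the exact p was 0.125, where the smallest possible is 0.0625. Over all genes 54 met the study's cutoffs, and 33 to 127 with 1 mouse left out. An adjusted p under 0.05 was found for 2 genes by edgeR, 47 by DESeq2, 4 with upper quartile factors, 1 without factors and 1 to 7 with 1 mouse left out.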
